A study of Homo sapiens with 36 samples.

Results

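The 7 Krüppel-like factor (KLF) genes KLF6, KLF4, KLF5, KLF3, KLF7, KLF9 and KLF10 were followed through 16 chromatin immunoprecipitation sequencing (ChIP-seq) peak lists, 7 of A549 and 9 of B2B cells. They are 7 of 20033 protein-coding genes in GENCODE release 44 (hg38), a list of names drawn up with earlier results of these data known. Every peak within 3 kb of any of their annotated start sites was taken from all lists. Peaks of the Jun-family proteins JunB, Jun and JunD were also taken within 200 kb of the start of each gene and merged where they overlapped, which gave 148 Jun-family regions of 72011 in the genome.

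KLF proteins are transcription factors whose carboxy-terminal zinc fingers bind GC-rich and CACCC sequences, and they share this domain with the SP proteins. They act as activators or repressors depending on the region ahead of the fingers, and in epithelia they take part in proliferation, differentiation and barrier formation. Several KLF genes are induced within minutes by growth factors, stress or hormones. AP-1 is a dimer of Jun-family and Fos-family proteins that binds the 7 letters TGACTCA or TGAGTCA and responds to the same kinds of signal.

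A549 is a human lung adenocarcinoma line, and B2B (BEAS-2B) is an immortalised line from non-cancerous bronchial epithelium. Each stands for its condition as 1 line, and no drug or genetic change is given in the labels of these samples. RNA polymerase II (pol II), H3K4me3 (a promoter mark), H3K27ac (a mark of active enhancers and promoters), the Mediator subunit Med1, JunB, Jun and JunD were profiled in both lines. CTCF and the cohesin subunit Rad21, the proteins of insulators, were used here in B2B only. The authors merged the 2 replicates of each target before peak calling, so every value below comes from 1 pooled list, carries no replicate error and supports no test between the lines. The epithelial markers KRT8, KRT18, EPCAM and CDH1 had an H3K4me3 peak in each line, whereas KRT5, KRT14, SFTPB, PECAM1 and ALB had none in either. SFTPB, a surfactant gene of alveolar type II cells, was thus without this mark in A549, and TP63 of basal airway cells had a peak in A549 but not in B2B. SFTPC, NKX2-1 and ABCA3 of type II cells and COL1A1 of fibroblasts had H3K4me3 peaks in both lines, and PTPRC of blood cells had one in A549. Fold enrichment (summit pileup over local background) at SFTPC, NKX2-1 and ABCA3 was 44.7, 21.0 and 48.5 in A549 and 3.16, 2.10 and 1.85 in B2B. B2B values were also low at the epithelial markers, from 1.965 (CDH1) to 7.76 (KRT8). The lists held 8563 (B2B JunB) to 61225 (B2B CTCF) peaks, and their read depth is unknown.

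To see which letters lay under the Jun-family peaks at the KLF genes, the reference sequence around the summits was read on the plus strand of hg38, 101 bases centred on the stronger Jun summit. The AP-1 letters, on either strand by their symmetry, are in capitals. The sites shown first carried them, and all but the KLF9 site were called in both lines. The 29 bases at KLF4 lie in its first exon and are kept short for that reason.
KLF6, chr10:3783011-3783111: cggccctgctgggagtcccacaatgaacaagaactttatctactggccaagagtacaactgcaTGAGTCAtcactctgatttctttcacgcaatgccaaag
KLF4, chr9:107490247-107490275: gattatccgcgTGACTCAtccagccctcc
KLF7, chr2:207121966-207122066: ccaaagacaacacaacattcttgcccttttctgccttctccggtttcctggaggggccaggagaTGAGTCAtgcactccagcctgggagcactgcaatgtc
KLF6, chr10:3852429-3852529: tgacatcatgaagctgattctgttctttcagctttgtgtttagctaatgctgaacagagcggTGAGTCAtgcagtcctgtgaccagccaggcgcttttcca
KLF4, chr9:107504970-107505070: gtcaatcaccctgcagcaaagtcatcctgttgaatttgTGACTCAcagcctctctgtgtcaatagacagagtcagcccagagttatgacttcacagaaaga
KLF5, chr13:73090592-73090692: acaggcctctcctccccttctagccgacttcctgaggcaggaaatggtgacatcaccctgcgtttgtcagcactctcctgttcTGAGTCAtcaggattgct
KLF7, chr2:207254117-207254217: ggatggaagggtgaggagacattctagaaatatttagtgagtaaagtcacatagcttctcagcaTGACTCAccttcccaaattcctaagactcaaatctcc
KLF9, chr9:70438788-70438888: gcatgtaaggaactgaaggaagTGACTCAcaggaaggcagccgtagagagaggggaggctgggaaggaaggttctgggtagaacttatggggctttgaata

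The next 5 sites held Jun peaks without these letters within 50 bp of the summit. They are the site just upstream of the KLF6 start, the KLF5 and KLF3 sites inside the first kilobases of the genes, the strongest KLF6 region of A549 alone, and a KLF7 region of B2B alone. No match says only that these exact letters are not in the window.
KLF6, chr10:3785364-3785464: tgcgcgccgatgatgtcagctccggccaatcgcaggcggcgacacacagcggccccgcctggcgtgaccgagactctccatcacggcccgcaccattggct
KLF5, chr13:73056155-73056255: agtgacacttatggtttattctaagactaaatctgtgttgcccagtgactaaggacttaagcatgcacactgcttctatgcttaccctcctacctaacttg
KLF3, chr4:38667236-38667336: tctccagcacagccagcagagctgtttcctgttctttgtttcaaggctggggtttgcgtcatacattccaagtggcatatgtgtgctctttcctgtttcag
KLF6, chr10:3740582-3740682: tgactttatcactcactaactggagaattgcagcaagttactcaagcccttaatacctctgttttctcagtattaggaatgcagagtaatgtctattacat
KLF7, chr2:207239380-207239480: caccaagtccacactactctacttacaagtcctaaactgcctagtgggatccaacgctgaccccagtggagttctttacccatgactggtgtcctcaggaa

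The KLF start sites carried promoter marks in both lines. Pol II, H3K4me3 and Med1 peaks lay within 3 kb of a start site of 7 of 7 genes in A549 and in B2B. Among all protein-coding genes that a list covers, 69.6% had such a pol II peak in A549 and 50.9% in B2B, 73.7% and 62.7% an H3K4me3 peak, and 54.7% and 61.1% a Med1 peak. H3K27ac was called at 6 of 6 genes in A549 (background 73.5%) and 7 of 7 in B2B (64.9%). The A549 H3K27ac list ended on chromosome 13 before KLF5, which therefore has no value there. The lists of A549 Med1, B2B Med1 and A549 pol II also ended early, on chromosomes 15, 15 and 20, past all 7 genes.

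Jun binding at the KLF genes was found in both lines, whereas JunB and JunD were called at more of them in A549. In A549, JunB and Jun each had a peak within 3 kb of 7 of 7 genes (background 31.1% and 38.2%) and JunD of 6 of 7 (17.8%), with KLF9 the exception. In B2B, Jun was called at 7 of 7 genes (25.4%), JunB at 3 of 7 (5.28%; KLF6, KLF7 and KLF10) and JunD at 2 of 7 (3.21%; KLF6 and KLF7). JunB and JunD were each called in A549 and not in B2B at 4 of 7 genes, against 26.7% and 16.2% of all protein-coding genes, and Jun at 0 of 7, against 19.3%. The reverse, a peak in B2B and none in A549, was seen at 0 of 7 genes for JunB, Jun and JunD (background 0.953%, 6.5% and 1.57%). With lists of equal length, A549 JunB stood at 5 of 7 genes, without KLF5 and KLF3, and B2B Jun at 6, without KLF9. JunB in A549 and not in B2B then fell from 4 genes to 2, KLF4 and KLF9, and Jun went from 0 to 1, KLF9. The full JunB lists held 28068 peaks in A549 and 8563 in B2B. Shares of all protein-coding genes were not recomputed at equal length, so these counts cannot be set against a background. KLF7 offered more room for a peak than the others, since the 3 kb around its 14 start sites came to 25.8 kb, against a median of 12.1 kb over coding genes and 6 kb for KLF9 with its single start site.

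**Figure D1:**
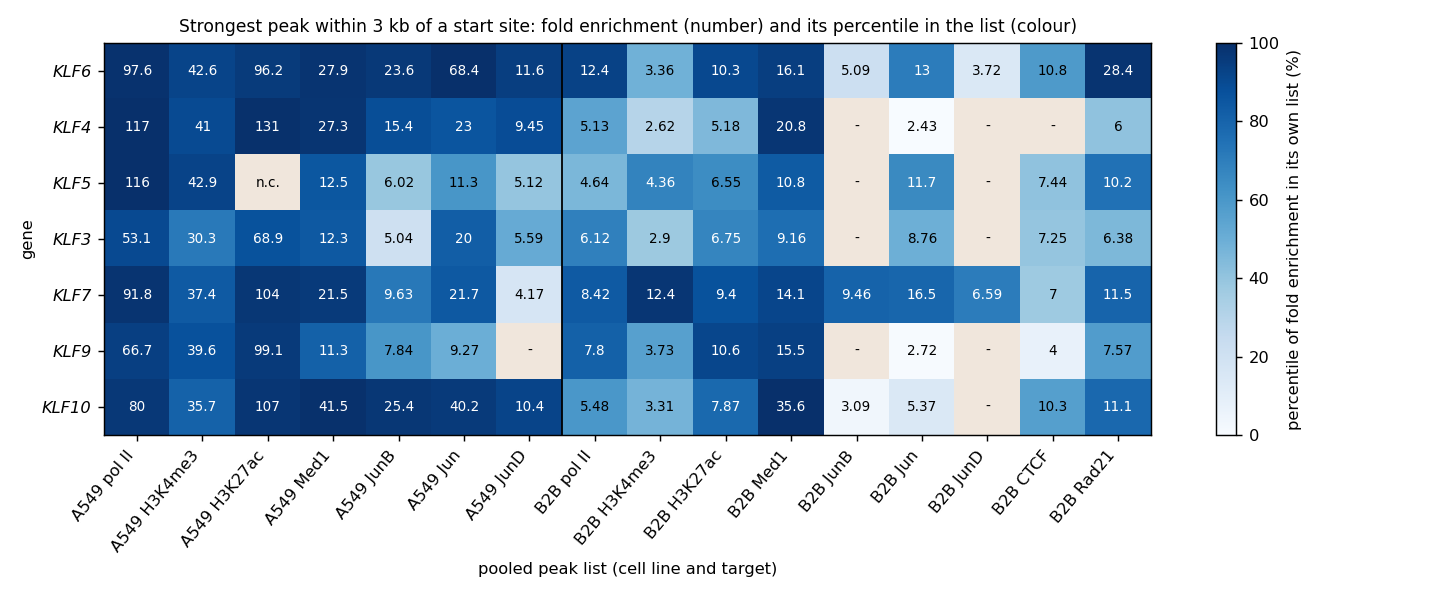
Strongest peak within 3 kb of a start site of each KLF gene (rows) in each pooled peak list (columns, A549 left of the line and B2B right of it). Numbers are fold enrichment, colour is the percentile of that value in its own list, a dash marks a gene without a peak and n.c. a gene past the end of the list. Only KLF6 and KLF7 had a number in all 3 Jun-family columns of both lines.

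KLF6, a zinc finger factor induced early after tissue injury and often described as a tumour suppressor, lies on the minus strand of chromosome 10 (3775996 to 3785281, ENSG00000067082, 7 start sites). Its strongest A549 Jun peak reached a fold enrichment of 68.4, higher than 99.6% of the list, with the summit at −133 bp from the gene start. JunB (22.4) and JunD (11.6) lay over the same place in A549. In B2B only Jun was called there, with a fold enrichment of 6.50 and the summit at −134 bp. Both lines thus placed the Jun summit 1 bp apart, upstream of the first exon, on the sequence from 3785364 shown above. H3K27ac was enriched 96.2-fold in A549 and 10.3-fold in B2B at its strongest KLF6 peak, and in B2B separate H3K27ac peaks lay on either side of the Jun site.

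A second KLF6 site, 2.22 kb into the gene, had peaks of JunB, Jun and JunD in A549 as well as in B2B. It is the first sequence shown, with TGAGTCA centred 16 bp from the A549 Jun summit, and the summits of all 6 lists fell within 30 bp. Fold enrichment was 23.6 for JunB, 26.5 for Jun and 8.33 for JunD in A549. In B2B it was 5.09 for JunB, 12.5 for Jun and 3.72 for JunD. H3K27ac and Med1 of both lines and B2B CTCF overlapped it. Only 2 of the 148 regions were called for all 3 proteins in both lines, both at KLF6 (genome 2.06% of regions). The other lay at −66.9 kb, where JunB and Jun were close in both lines (10.9 and 38.0 in A549, 10.53 and 41.7 in B2B) and JunD was 4.46 in A549 and 8.95 in B2B. The local background, as a multiple of the lowest in its list, was 2.95 for JunB, 2.69 for Jun and 3.82 for JunD in A549 and 1.00 to 1.02 in B2B. The AP-1 letters lay 15 bp from the B2B Jun summit, in the fourth sequence shown. That region overlapped Med1 in A549 but not in B2B, and H3K27ac in neither line.

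**Figure D2:**
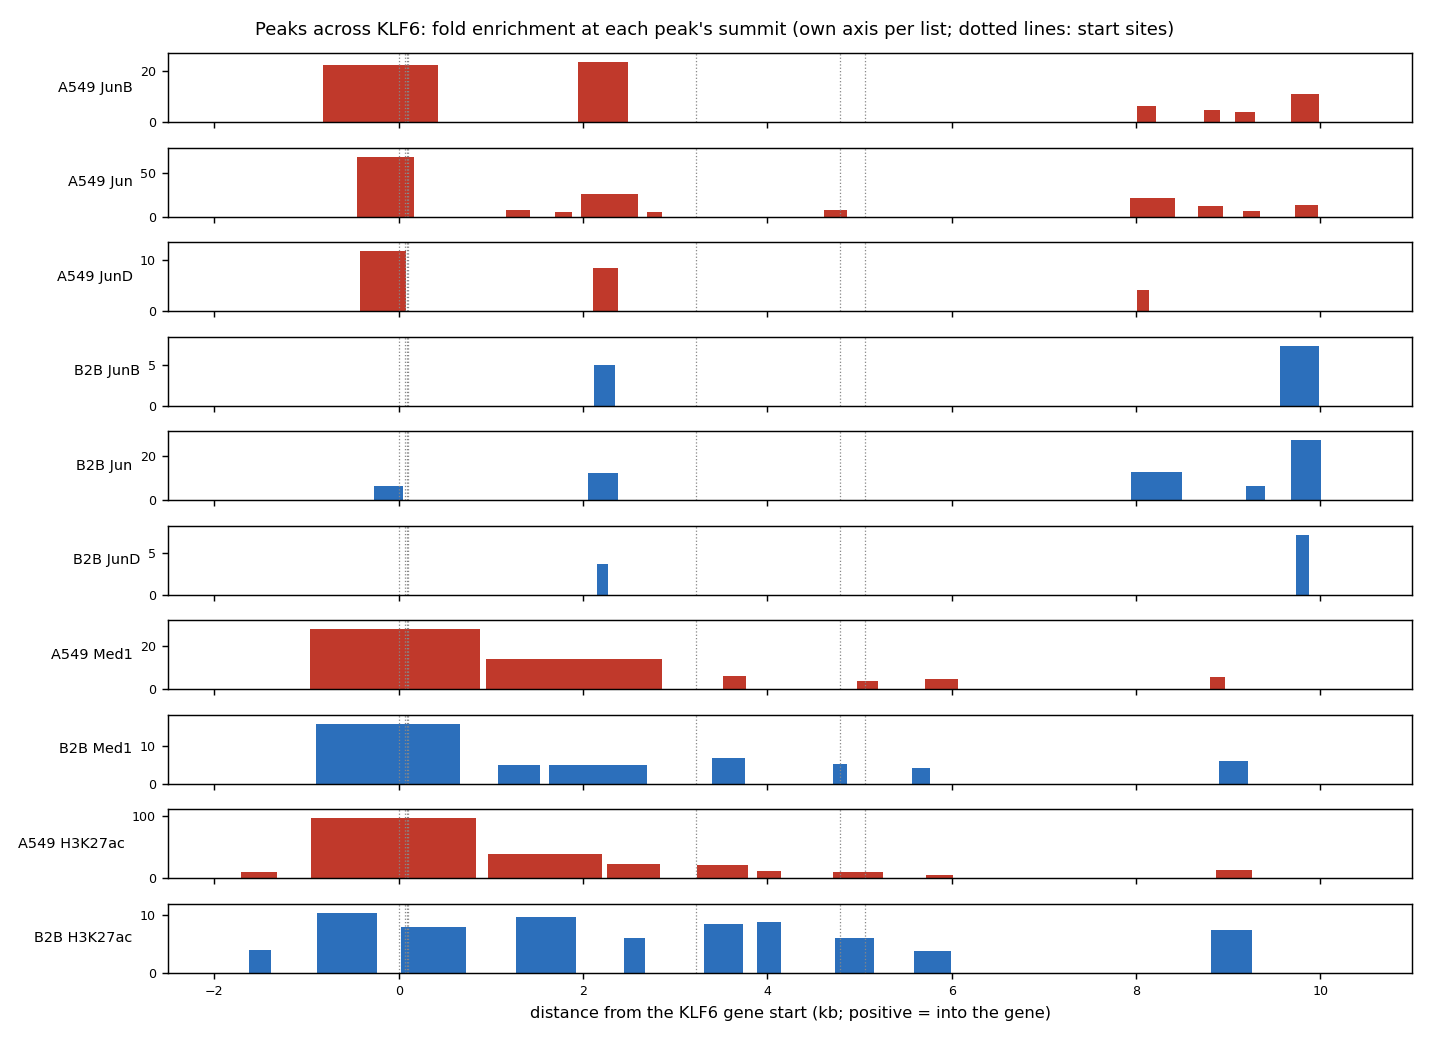
Peaks of 10 lists along KLF6, as fold enrichment at the summit (vertical, own axis for each list) against the distance from the gene start in kb (horizontal), with A549 in red and B2B in blue. The site at 2.22 kb has a bar in all 6 Jun-family lists, and the site at −133 bp in all 3 of A549 and in the Jun list of B2B.

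KLF10, known as a TGF-beta-inducible early gene, lies on the minus strand of chromosome 8 (102648784 to 102655725, 2 start sites). Its main Jun-family site lay at 387 bp downstream of the inner start site, held the AP-1 letters and had summits of 5 lists within 21 bp. A549 fold enrichment was 25.4 for JunB, 40.2 for Jun and 10.4 for JunD. In B2B it was 3.09 for JunB and 5.37 for Jun, and JunD was not called. The A549 JunB value stood higher than 97.2% of its list and the B2B JunB value than 3.2% of its own. The summit pileup of that B2B JunB peak was 142, against a median of 24 over 1500 peaks drawn from the same list. A further site at −186 bp from the outer start was called for all 3 proteins in A549 (4.21, 8.09 and 4.66) and for none in B2B. Med1 was the mark with the most similar values in both lines, at 41.5 in A549 and 35.6 in B2B.

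KLF4, one of the reprogramming factors and a regulator of epithelial barrier genes, lies on the minus strand of chromosome 9 (107484852 to 107490482, 6 start sites). Its only Jun-family site within 3 kb was in the first exon, with the A549 Jun summit 261 bp downstream of the start and the B2B Jun summit 267 bp downstream. A549 fold enrichment was 15.4 for JunB, 23 for Jun and 9.45 for JunD, whereas B2B had Jun alone at 2.43, higher than 0.2% of its list. This low rank is by fold enrichment only. The summit pileup of that B2B peak was 72, against a median of 24 over 1500 peaks drawn from the same list. The A549 JunD summit, 226 bp downstream, was the nearest to the TGACTCA shown for this exon. Pol II (117) and H3K27ac (131) at KLF4 were each higher than at least 99.5% of their A549 lists. In B2B the same 2 values were 5.13 and 5.18.

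KLF7, a factor of neuronal differentiation, lies on the minus strand of chromosome 2 (207074137 to 207173856) and had sites led by either line. Near its main group of start sites, A549 had JunB (6.38), Jun (21.7) and JunD (4.17) and B2B had Jun alone (2.94). At an inner start site the order was the other way round. There, 2392 bp downstream of the start at 207124408, B2B had JunB at 9.46, Jun at 16.5 and JunD at 6.59, and A549 had JunB alone at 6.83. This site overlaps an exon of the long noncoding RNA KLF7-IT1 and a B2B CTCF peak, and TGAGTCA lay 17 bp from the summit in the third sequence shown. Jun was also called in B2B alone at the inner starts, at 13.4 and 9.38.

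KLF5, which drives proliferation of basal epithelial cells, lies on the plus strand of chromosome 13 (73054976 to 73077541, 4 start sites). At 1.23 kb into the gene Jun had nearly the same fold enrichment in both lines, 11.3 in A549 and 11.7 in B2B, with summits 9 bp apart. JunB (6.02) joined it in A549. At an inner start A549 had JunB (5.25), Jun (6.51) and JunD (5.12) and B2B had none of them. Here B2B also had a Jun peak at −1316 bp (8.09) that A549 lacked, so that each line had sites of its own.

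KLF3, a repressor that recruits CtBP proteins, lies on the plus strand of chromosome 4 (38664197 to 38701517, 3 start sites). A549 had all 3 proteins just upstream of the start, with JunB at 4.97, Jun at 15.3 and JunD at 5.59. No Jun-family protein was called there in B2B. Both lines shared a stronger site 2942 bp downstream of an annotated start, with Jun at 20.05 in A549 and 8.76 in B2B and summits 7 bp apart. It lay close to the 3 kb limit, as did a KLF6 region 2870 bp from its nearest start, whose Jun values were 20.9 and 13.0. The nearest Jun-family regions outside the limit were of B2B alone, with Jun at 4.10 in a region 3181 bp from the KLF9 start and at 7.06 in one 3201 bp from a KLF7 start.

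KLF9, induced by glucocorticoid and thyroid hormone, lies on the minus strand of chromosome 9 (70384604 to 70414657) and had the lowest A549 Jun value of the 7 genes within 3 kb. In its first exon A549 had JunB at 7.84 and Jun at 9.27, and B2B had Jun at 2.72, higher than 0.4% of its list. The summit pileup of that B2B peak was 41, against a median of 24 over 1500 peaks drawn from the same list. The main KLF9 site lay at −4.84 kb in an exon of a long noncoding RNA. A549 fold enrichment there was 24.3 for JunB, 49.99 for Jun and 8.87 for JunD, and in B2B it was 2.63 for JunB and 7.06 for Jun, on backgrounds of 14.3 and 13.1 times the lowest. H3K27ac, Med1 and pol II of both lines covered this region.

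The local background at these sites was higher in B2B. Fold enrichment is the pileup at the summit over the local background of the peak caller, so the background is the divisor of the values above, and it can be solved from the deposited columns. It is given as a multiple of the lowest in its list, while pileups cannot be compared between lists of unknown depth. The lowest means, here and above, a low percentile of the background over sampled peaks of the list, not its minimum. At the 11 promoter sites with Jun in both lines, Jun fold enrichment was higher in A549 at 9 and in B2B at 2, both in KLF5, and the background was higher in B2B at 11. At −133 bp of KLF6 the Jun background was 1.68 times the lowest in A549 and 25.6 in B2B. It was 2.02 and 22.8 at KLF10, and 1.00 and 24.9 at KLF4. Over the 11 sites it ranged from 1.00 to 2.36 in A549 and from 1.58 to 25.6 in B2B. The part of the background in the differences of fold enrichment was not tested.

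**Figure D3:**
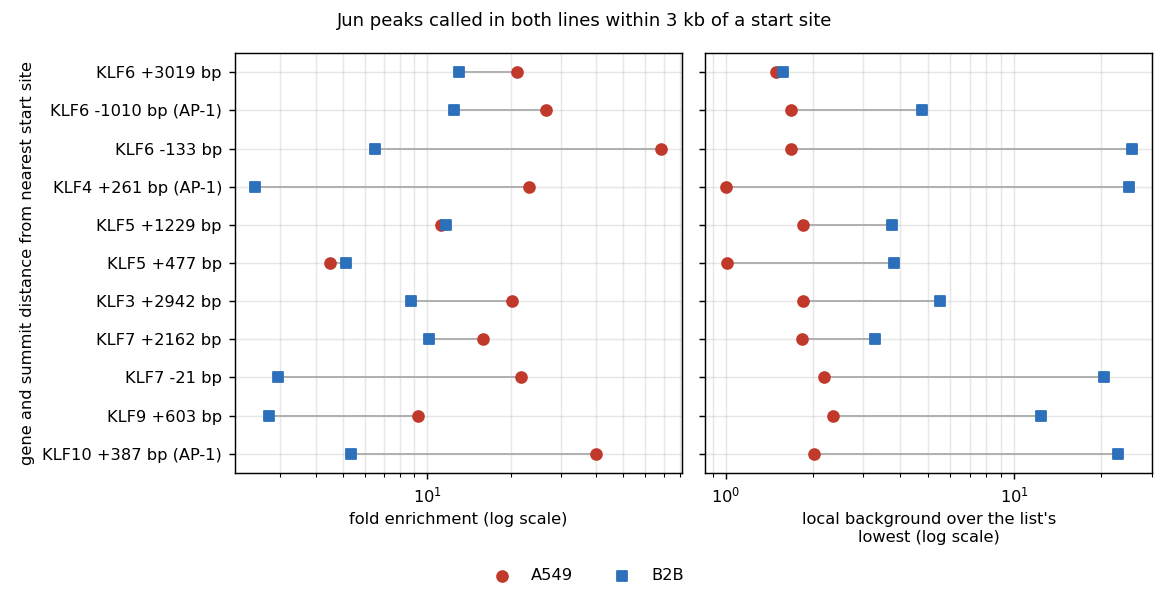
Fold enrichment and local background (horizontal, log scales, left and right) of the 11 Jun sites within 3 kb of a start site that were called in both lines (A549 circles, B2B squares), 1 pooled list per line. Fold enrichment is higher in A549 at 9 of the 11 sites, and the background is higher in B2B at 11 of 11.

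Pol II, H3K4me3 and H3K27ac peaks also stood mostly on a higher background in B2B, at the KLF genes as over peaks drawn from their lists. The 1500 peaks of each list were drawn below the same cut on −log10 p, which left out the strongest peaks. Over them the median background was 5.27 times the lowest for B2B pol II, 10.98 for H3K4me3 and 8.30 for H3K27ac, against 1.43, 1.34 and 1.83 in A549. It was 1.52 in B2B and 1.44 in A549 for Med1, and 1.10 and 1.35 for Jun. At the KLF6 start the B2B pol II peak with its summit at −311 bp had a background of 29.6, and the A549 peak with its summit at −303 bp one of 1.39. The strongest B2B pol II peak stood on 27.2 times the lowest at KLF4, 28.1 at KLF5 and 29.3 at KLF10. The A549 values were 1.00, 1.00 and 1.84. The B2B value was lower at the other genes, with 14.9 at KLF9, 5.07 at KLF3 and 3.09 at KLF7. It was 1.62 at KLF6, where the strongest peak had its summit 3102 bp downstream of the nearest start. At these genes the A549 values ran from 1.35 (KLF9) to 2.22 (KLF3). At KLF5 the strongest B2B H3K27ac peak (6.55) stood on 1.00, and a wider, weaker one (5.80), 539 bp past an inner start, on 24.9. Med1 was the mark without such a gap, with backgrounds of the strongest peaks from 1.00 to 2.65 in B2B and from 1.00 to 3.60 in A549. Med1 fold enrichment was 27.9 in A549 and 16.1 in B2B at KLF6, 27.3 and 20.8 at KLF4, 12.5 and 10.8 at KLF5, and 11.3 and 15.5 at KLF9. For KLF9 the order of the lines was thus reversed. Across the wider loci, the median B2B Jun background was 3.81 times the lowest within 3 kb of a start (n = 15 regions) and 1.24 further away (n = 91), against 1.68 (n = 19) and 1.51 (n = 61) for A549 Jun.

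Where Jun peaks of both lines fell in 1 merged region, their summits mostly lay close together. Merging takes only overlapping peaks, so small gaps are partly set by this choice. The Jun summits lay 1 to 50 bp apart at the 11 promoter sites, with a median of 9 bp. Over all 45 such regions at the 7 loci the median was 16 bp, 42 lay within 50 bp, and the widest gap was 470 bp. Genome-wide the median was 20 bp over 16590 regions, with 84.7% within 50 bp, so close summits are not particular to the KLF genes.

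Within 200 kb both lines had Jun-family regions of their own at each of the 7 loci. Of the 148 regions, 49 (33.1%, Wilson 95% interval 26.0 to 41.0, counting error only) were called in both lines, against 26.5% of regions in the genome. A549 alone had 42 (28.4%, 21.7 to 36.1; genome 34.1%) and B2B alone 57 (38.5%, 31.1 to 46.5; genome 39.4%). The difference of −10.1 percentage points between A549 alone and B2B alone turned to 1.65 with lists of equal length, so no line can be said to have more regions of its own. KLF6 had 42 regions, more than 99.6% of coding genes had, KLF10 had 29 and KLF7 25, against a median of 12 and quartiles of 7 and 18. KLF4 and KLF3 had 9 each and KLF5 and KLF9 17 each. B2B-alone regions were in the majority at KLF7 (13 of 25) and KLF9 (10 of 17), and A549-alone regions were the largest class at KLF5 (8 of 17).

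**Figure D4:**
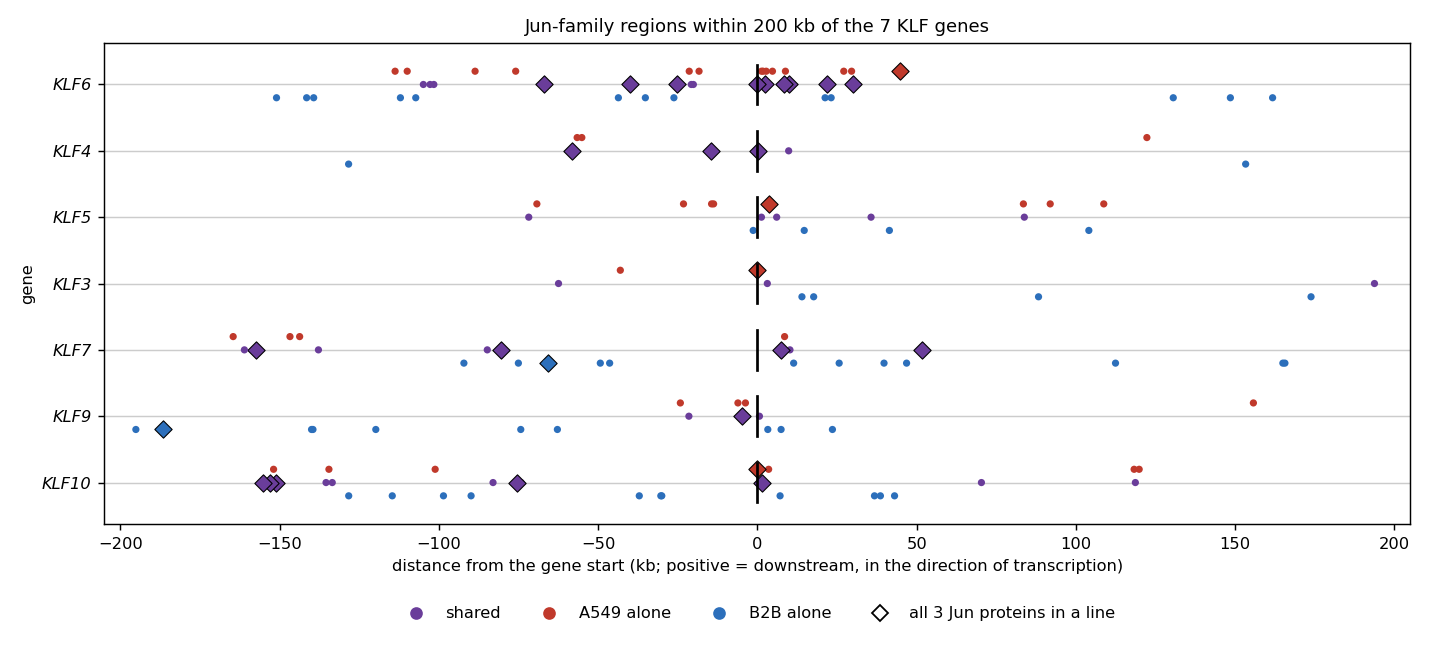
Jun-family regions within 200 kb of each KLF gene (rows), by distance of the region's middle from the gene start in kb (horizontal). Purple marks regions called in both lines, red A549 alone and blue B2B alone, and diamonds mark all 3 Jun-family proteins in at least 1 line. KLF6 has 42 regions on both sides of its start, and 3 of the diamonds of KLF10 stand together far upstream.

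**Figure D5:**
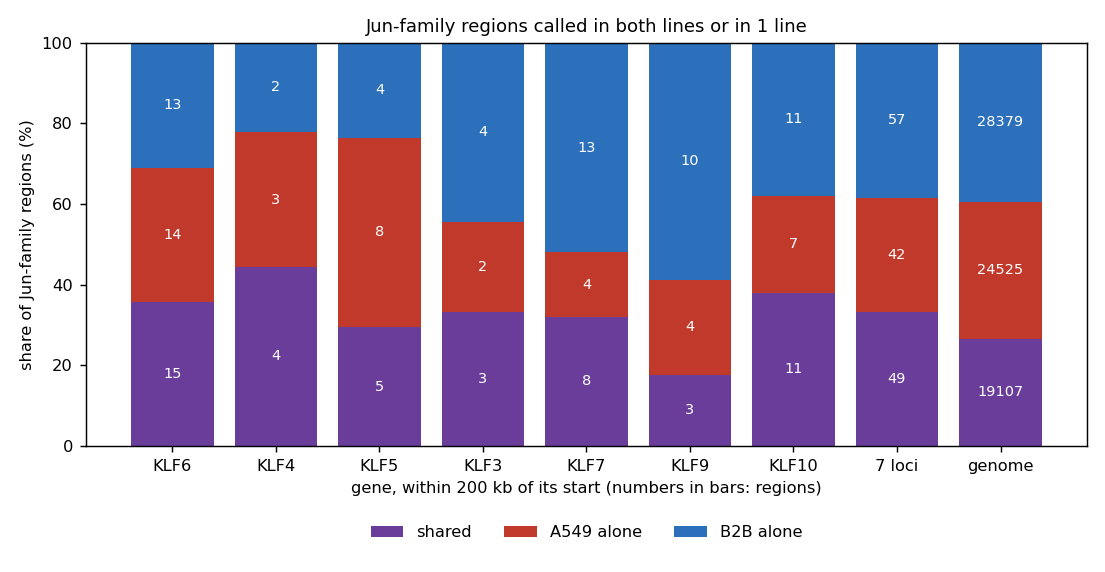
Share of Jun-family regions (vertical, percent) called in both lines, in A549 alone and in B2B alone for each gene, the 7 loci together and the genome, with the number of regions printed in the bars. B2B-alone regions take 13 of 25 at KLF7 and 10 of 17 at KLF9, and 2 of 9 at KLF4.

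The loci also differed in how many Jun-family proteins were called together. In A549, 21 of 91 regions (23.1%, 15.6 to 32.7) had all 3 proteins, against 15.3% in the genome. In B2B 9 of 106 did (8.49%, 4.53 to 15.4), against 9.2%, and 84 of 106 (79.2%) had Jun without the others, against 74.9%. Jun was called in 106 of 106 B2B regions (genome 94.1%), JunB in 20 (18.9%; genome 17.5%) and JunD in 11 (10.4%; genome 17.1%). In A549 Jun was called in 80 of 91 (87.9%; genome 80.2%), JunB in 65 (71.4%; genome 63.5%) and JunD in 22 (24.2%; genome 20.6%). The 9 B2B regions were at KLF6 (5), KLF7 (3) and KLF9 (1), and the 21 of A549 at KLF6 (7), KLF10 (6), KLF4 (3), KLF7 (2) and 1 each at KLF5, KLF3 and KLF9. KLF4, KLF5, KLF3 and KLF10 thus had none in B2B.

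Single distal regions showed how far the lines could diverge. At KLF4, a region at −14.4 kb reached 34.4 for JunB, 62.4 for Jun and 17.8 for JunD in A549, with H3K27ac, Med1 and pol II of that line over it. In B2B it had Jun at 16.3 and none of these marks, and the Jun background was 1.20 times the lowest there and 1.36 in A549. Its TGACTCA lay 9 bp from the summit, in the fifth sequence shown. In the B2B lists, no CTCF site with Rad21 lay between this region and the KLF4 start, and A549 had no such list here.

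At KLF10, a region at −151 kb in an exon of the long noncoding RNA GASAL1 held the highest A549 values of the 148 regions, with JunB at 72.3, Jun at 91.8 and JunD at 24.0. In B2B, JunB was 3.07 and Jun 4.80, with a Jun background of 38.7 times the lowest in B2B and 1.41 in A549. The start of another protein-coding gene lay 56.6 kb from it, nearer than KLF10. In the B2B lists, 7 CTCF sites with Rad21 lay between the region and the KLF10 start. The region is thus within the window of KLF10 without any measured link to it.

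Further regions were of one line alone or shared at unequal values. At KLF7, a region at −65.6 kb in an exon of the long noncoding RNA MYOSLID had JunB at 9.46, Jun at 26.4 and JunD at 6.49 in B2B and no Jun-family peak in A549. At −80.5 kb the shared region with TGACTCA had Jun at 37.0 in B2B and 8.77 in A549. At KLF9, a B2B-alone region at −187 kb in an intron of TRPM3 had JunB at 4.67, Jun at 24.2 and JunD at 3.50. At KLF5, the shared region at 35.7 kb had JunB at 11.8 and Jun at 25.3 in A549 and JunB at 7.69 and Jun at 27.7 in B2B. The A549-alone region of KLF6 at 44.7 kb overlapped A549 Med1 and pol II but not H3K27ac.

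Jun-family regions around the KLF genes overlapped marks of their own line at higher shares than regions of the genome did. The genome regions were not matched for distance from a start site, and 24 of the 148 KLF regions lay within 3 kb of one. The part of this distance in the higher shares was not tested. On chromosomes 1 to 12, which all lists cover and which leaves out KLF5, H3K27ac overlapped 41 of 78 A549 regions (52.6%; genome 29.1%), Med1 40 (51.3%; 33.6%) and pol II 54 (69.2%; 41.6%). In B2B, H3K27ac overlapped 26 of 97 regions (26.8%; 12.2%), Med1 31 (32.0%; 15%) pol II 42 (43.3%; 18.1%) and CTCF 47 (48.5%; 31.8%). A549-alone regions carried B2B marks at times, with H3K27ac of B2B at 12 of 34 (genome 24.2%). B2B-alone regions carried A549 H3K27ac or Med1 at 0 of 53 (genome 1.71% and 2.28%). CTCF of B2B overlapped 19 of the 53 B2B-alone regions (35.8%; genome 26.9%), 28 of 44 shared ones (63.6%; 39.1%) and 3 of 34 of A549 alone (8.82%; 12.6%).

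AP-1 letters lay at some of the KLF summits in every list, and at a smaller share of A549 Jun summits than in the whole list. TGACTCA or TGAGTCA lay within 50 bp of 30 of 68 A549 JunB summits (44.1%, against 46.2% of the whole list), 23 of 82 A549 Jun summits (28.0%, interval 19.5 to 38.6, against 42.0%) and 9 of 27 A549 JunD summits (33.3%, against 34.2%). The A549 Jun share was 3 of 20 (15.0%) within 3 kb of a start site and 20 of 62 (32.3%) further away. The interval of the second, 22.0 to 44.6, included the share of the whole list, which was not split by distance. In B2B the shares were 14 of 20 for JunB (70.0%, against 53.6%), 42 of 108 for Jun (38.9%, against 39.8%) and 7 of 11 for JunD (63.6%, against 42.8%). Taking the strongest summit of each region, 24 of 49 shared regions (49.0%, 35.6 to 62.5) had the letters, 18 of 57 B2B-alone regions (31.6%, 21.0 to 44.5) and 7 of 42 A549-alone regions (16.7%, 8.32 to 30.6). The genome had 51.5%, 28.7% and 29.7%. Of the 24 regions within 3 kb of a start, 5 had the letters at a summit, at KLF6, KLF4, KLF10 and 2 places in KLF7. In the RefSeq promoter windows (250 bases before to 50 after a start, hg38) of the 5 members matched there, 0 of 9 held the letters, against 4.95% of 35116 windows, and 0 of 9 held the 8-letter cAMP response element, against 1.85%.

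CTCF sites with a called Rad21 peak were few around KLF5 and KLF6 and many around KLF10. In B2B, KLF6 had 2 of them within 200 kb, KLF5 1, KLF4 and KLF7 4 each, KLF3 5, KLF9 9 and KLF10 13, against a median of 5 (quartiles 3 and 8) over coding genes. KLF6 had 25 CTCF peaks in the window, of which 2 met Rad21. Over the drawn peaks the median background was 10.4 times the lowest for B2B Rad21 and 1.32 for B2B CTCF. The part of the Rad21 background in these counts was not tested. Within 3 kb of a start site CTCF was called at 6 of 7 genes (background 50.1%), with KLF4 the exception, and Rad21 at 7 of 7 (67.9%).

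Jun-family peaks were called at a smaller share of the other KLF and SP genes than of the 7 members, which were chosen with earlier results known. Of 19 such genes, JunB was called within 3 kb of 8, Jun of 9 and JunD of 6 in A549 (background 31.1%, 38.2% and 17.8%). In B2B they were called at 0, 1 and 0 (background 5.28%, 25.4% and 3.21%), and pol II at 10 (background 50.9%). The gene with B2B Jun was KLF11, a TGF-beta-responsive relative of KLF10, at 2.79 against 44.6 in A549. SP1 and SP3, widely expressed members, had A549 Jun at 5.69 and 12.1 and no B2B Jun-family peak. By the ranks of their strongest start site peaks over the lists, the gene most like KLF6 was ATP1B1, with a root mean square distance of 5.68 percentile points over 16 lists (median over all genes 46.4). The nearest were COX18 for KLF4, MXI1 for KLF5 (15 lists), NRBP1 for KLF3, DDAH1 for KLF7, DAZAP2 for KLF9 and GTF2IRD2B for KLF10, at 5.45 to 7.45 points.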

How the data were processed

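Chromatin of A549 and B2B cells was profiled in 36 samples, 2 replicates per target and line, with 4 input samples. Per the labels and the submitters' processing notes, the authors aligned reads to hg38 with Bowtie2 2.4.4, used SAMtools 1.13, merged replicates and called peaks with MACS2 2.2.7.1. The options and the control given to the caller are not given in the sources used here. The deposited lists hold, per peak, a score, the fold enrichment (a ratio of summit pileup to local background), the −log10 p-value and the summit offset. The score is 10 times −log10 of the q-value without decimals, at least 20 in these lists. The depth behind the lists is unknown, and the number of lists without replicate values limits the precision. The 4 lists that end early were used only where they cover a gene.

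Members and lists of genes were chosen with earlier results of these data known. Start sites came from GENCODE release 44. Peaks were intersected by 1 bp in Python 3.11.15 (NumPy 2.4.6, pandas 2.3.3, SciPy 1.17.1), sequence was read with pysam 0.24.0, and functions were tested on simulated data. Pileup and local background were solved from the deposited fold enrichment and p-value, taking the pileup as a whole number, and 1500 of 1500 sampled peaks per list had a solution. Sampled peaks were drawn below a cut on −log10 p that left out the strongest. The lowest background of a list was taken as the 1st percentile over its sampled peaks. A region was shared if peaks of both lines overlapped it. Wilson 95% intervals cover counting error only. Regions beyond 3 kb were named, per gene and class, by the most proteins and then the highest summed fold enrichment. Other regions with all 3 proteins, and the sequences shown, were chosen after their values were seen. Alternatives were other distances and windows, a score of at least 50 (−log10 q of at least 5), lists of equal length by −log10 p, protein-coding start sites, summits inside the window, stricter overlap, and other motif windows.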

Additional observations from a re-analysis of the deposited data

How the results depend on the processing

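Of 182 alternatives to 37 results, 170 stayed within 1.5 times a count or within the interval of a share. B2B JunD fell from 2 genes to 1 within 1 kb of a start site and to 1 with the start sites of protein-coding transcripts, where KLF7 was lost. Counts of genes called in A549 and not in B2B were put through the same alternatives, a check added after seeing the data. JunB went from 4 genes to 2 with lists of equal length, and Jun from 0 to 1 with lists of equal length (KLF9) and within 1 kb (KLF3). Shares of all protein-coding genes were not recomputed under the alternatives. In all, 5 of the 114 alternatives on counts of KLF genes went beyond 1.5 times the count. With lists of equal length the A549-alone minus B2B-alone difference was 1.65 instead of −10.1 percentage points. Requiring no peak of the other line within 1 kb left 20.9% of regions in A549 alone and a difference of −20.2 percentage points. Marks within 1 kb instead of overlapping raised H3K27ac to 66.7% in A549 and 42.3% in B2B and Med1 to 64.1% and 42.3%. The cause of these changes was not tested, beyond the wider reach or shorter lists that the alternatives set. No paired analysis was possible because the authors merged the replicates before peak calling, and for the same reason leaving out a replicate could not be run. Peak presence depends on the local background and on an unknown depth, so a missing B2B peak is not an absence of binding, and a 200 kb window assigns no region to a gene.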
